A study of Mus musculus with 28 samples.

Results

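Id proteins and E proteins are helix-loop-helix factors that work against each other in lymphocytes. E proteins pair up and bind short DNA motifs called E-boxes. Id proteins lack the basic stretch that contacts DNA, so an E protein held by an Id protein cannot bind. In CD8+ T cells, Id2 is known for its part in effector cells and Id3 for its part in naive cells and memory precursors. The 4 genes described here, Id2, Id3, Tcf3 (which encodes E2A, with its splice forms E12 and E47) and Tcf12 (which encodes HEB), were taken by name out of the 21610 genes and the 20603 genes of both bulk count tables and the 27933 genes of the single-cell table. All 4 were measured in every table, and all 4 passed the filter on low counts in both bulk tables.

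The RNA came from CD8+ T cells that had entered tumours (TILs), taken from C57BL/6 wild-type mice bearing MC38-OVA, a mouse colon carcinoma line that carries ovalbumin. In the first bulk experiment PD-1- cells were sorted as effector-like (Slamf7hi CX3CR1+, n = 3 libraries), memory-like (Slamf7hi CX3CR1-, n = 5) and naive-like (Slamf7- CX3CR1-, n = 6). In the second, Tim-3+PD-1+ cells (double positive, DP) and Tim-3-PD-1- cells (double negative, DN) were sorted on day 12 after implantation, from mice that had received antibodies to Tim-3 and PD-1 (blockade) or isotype control antibodies, with n = 3 libraries for each of DP blockade, DP isotype, DN blockade and DN isotype. One further library of single DN cells was made after blockade and 1 after isotype. The labels give no age or sex and do not say whether libraries came from separate animals. Names of DP and DN libraries of the same treatment carry the same numbers. Whether these mark a shared source is not said, and the main fit did not pair them. The names of effector-like libraries 1 and 2 carry several numbers, so these libraries may be pools. Names of all naive-like libraries end in a different date-like number from those of effector-like and memory-like libraries. The labels do not say what it marks. In comparisons with naive-like cells, whatever it marks cannot be told apart from the subset. P-values therefore measure the spread between these libraries only.

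The libraries held 5027523 to 7978932 counts in the subset experiment and 8005818 to 13579262 counts in the treatment experiment, and were scaled separately. Of the genes of the sort, Cx3cr1 and Havcr2 followed the labels. Cx3cr1 ran from 249.99 to 406 CPM (counts scaled to a common total per library) in effector-like, from 3.48 to 20.2 CPM in memory-like and from 0 to 5.71 CPM in naive-like libraries, and Havcr2, which encodes Tim-3, from 245 to 391 CPM in DP and from 2.48 to 36.4 CPM in DN libraries. Slamf7 ran from 138 to 248 CPM in effector-like, from 29.2 to 104 CPM in memory-like and from 12.8 to 36.1 CPM in naive-like libraries. It was low in 1 library labelled Slamf7hi, since memory-like library 2 held 29.2 CPM where the median of its group was 101 CPM. That library lay within the range of the naive-like libraries, labelled Slamf7-. All 3 subsets were sorted as PD-1-, yet Pdcd1, the gene of PD-1, differed between them. It was at 38.4 to 75.3 CPM in effector-like, 31.6 to 47.7 CPM in memory-like and 5.10 to 23.5 CPM in naive-like libraries. By edgeR, Pdcd1 passed as higher in effector-like and in memory-like than in naive-like cells. The summed level of 6 core T cell genes was 2213 to 4014 CPM in all 26 bulk libraries. Markers of other cells differed between groups. The 5 markers of plasmacytoid dendritic cells summed to 20.8 to 33.7 CPM in DP libraries, 545 to 911 CPM in DN blockade libraries and 1060 to 1602 CPM in DN isotype libraries, and to 9.57 to 61.7 CPM in effector-like, 150.3 to 1158 CPM in memory-like and 0 to 359 CPM in naive-like libraries. The 7 myeloid markers summed to 175 to 436 CPM in DP and 41.6 to 166 CPM in DN libraries, and 3 of them were higher and 1 lower in DP than in DN cells in each treatment. They summed to 16.4 to 458 CPM in effector-like, 15.2 to 459 CPM in memory-like and 20.1 to 889 CPM in naive-like libraries. The 5 blood markers summed to 0.253 to 118 CPM in blockade libraries and 1403 to 5310 CPM in isotype libraries. The 6 markers of tumour and stroma summed to 775, 495 and 8.59 CPM as the highest, middle and lowest effector-like library. Dendritic markers summed to at least 34.8 CPM in effector-like libraries and at most 26.9 CPM in naive-like ones. CD4 T markers summed to at most 10.2 CPM in effector-like and at least 31.1 CPM in memory-like libraries. Other subset pairs overlapped, as did all for NK and gamma-delta T markers. The latter reached at most 147 CPM in DP and at least 238 CPM in DN libraries. For dendritic markers these values were 33.3 and 49.7 CPM, and for CD4 T markers 52.2 and 58.6 CPM. The part of these cells in the results below was not tested. In bulk samples fewer cells of a type and less RNA per cell cannot be told apart.

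In the GENCODE vM21 annotation of GRCm38, which is not the build that the bulk values were made on, Id2 lies at chr12:25093799-25097140 on the minus strand and Id3 at chr4:136143497-136145755 on the plus strand, both as short protein-coding genes. Tcf3 lies at chr10:80409514-80433647 and Tcf12 at chr9:71842688-72111871, both on the minus strand. Tcf12 spans 11 other annotated genes, 7 of them on its own strand and 4 on the other, all unconfirmed transcripts, processed pseudogenes or a miRNA, so that some of its intronic reads could belong to them. The stretch printed next is shown because it holds the E-box before the RefSeq start of Id2. That is a match to the kind of motif through which the proteins encoded by Tcf3 and Tcf12 bind DNA. The stretch lies inside the longer GENCODE span of Id2 given above, so it does not precede the gene as annotated there. It is the part of the RefSeq promoter window of Id2 that lies outside annotated exons (GRCm38.p6, chr12:25096254-25096342, minus strand, 250 to 162 bases before the start), written from 5′ to 3′ with the E-box in capitals.
Id2: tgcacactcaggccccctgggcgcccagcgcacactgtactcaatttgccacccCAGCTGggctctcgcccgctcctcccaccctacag
The letters CANNTG (the same on both strands) occurred 1 time in the 250 bases before the RefSeq start of Id2 and 0 times in those of Id3. Of the Id3 window, 0 bases lay outside annotated exons. Among 32851 promoter windows of the same length, 66.2% held CANNTG and 13.0% held CAGCTG, which is one form of CANNTG. A match or its absence in these letters says nothing about binding.

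Id2 was highest in effector-like and lowest in naive-like cells, and Id3 had the opposite order. Id2 was at 447, 466.1 and 650 CPM in effector-like libraries, at 322 to 388 CPM (median 345) in memory-like libraries, and at 137 to 263 CPM (median 192) in naive-like libraries. No effector-like library overlapped a memory-like one, and no memory-like library overlapped a naive-like one. The share of all genes without such overlap was not counted, for these or any later comparisons. By edgeR's quasi-likelihood test, adjusted over 12388 genes, Id2 was higher in effector-like than in naive-like cells by a log2 fold change of 1.44 ± 0.17 (SE, adjusted p = 5.92e-05). It was higher in memory-like than in naive-like cells by 0.84 ± 0.15 (adjusted p = 0.00482), and the difference between effector-like and memory-like cells, 0.59 ± 0.18, did not pass (adjusted p = 0.143). Of all genes tested, 6.42% passed in effector-like against naive-like cells (2.62% up and 3.79% down), 5.51% between memory-like and naive-like cells (2.78% up and 2.73% down) and 1.91% between effector-like and memory-like cells (0.484% up and 1.43% down).

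Id3 was at 12.6, 6.93 and 3.12 CPM in effector-like libraries, at 19.7 to 50.3 CPM (median 34.9) in memory-like libraries, and at 51.1 to 101 CPM (median 72.6) in naive-like libraries. The 3 groups did not overlap, although the highest memory-like and the lowest naive-like library were less than 1 CPM apart. Against memory-like cells, Id3 was lower in effector-like cells by a log2 difference of -2.26 ± 0.41 (edgeR, adjusted p = 0.00837), and against naive-like cells by -3.22 ± 0.43 (adjusted p = 0.000159). The first of these calls was lost without effector-like replicate 2 (-2.20, adjusted p = 0.0621). Between memory-like and naive-like cells Id3 differed by -0.96 ± 0.31 and did not pass (adjusted p = 0.0854, and 0.0331 with DESeq2). Memory-like 2 and naive-like 4 and 6, chosen after seeing the data because they stood apart from their groups, were left out of a further fit. The check for outlying values given at the end flagged none of them. Without these libraries the same calls held. Id2 then differed by 1.51 for effector-like over naive-like (edgeR, adjusted p = 0.000101) and 0.93 for memory-like over naive-like cells (adjusted p = 0.00602), and Id3 by -2.42 for effector-like over memory-like (adjusted p = 0.006) and -3.26 for effector-like over naive-like cells (adjusted p = 0.000236).

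**Figure D1:**
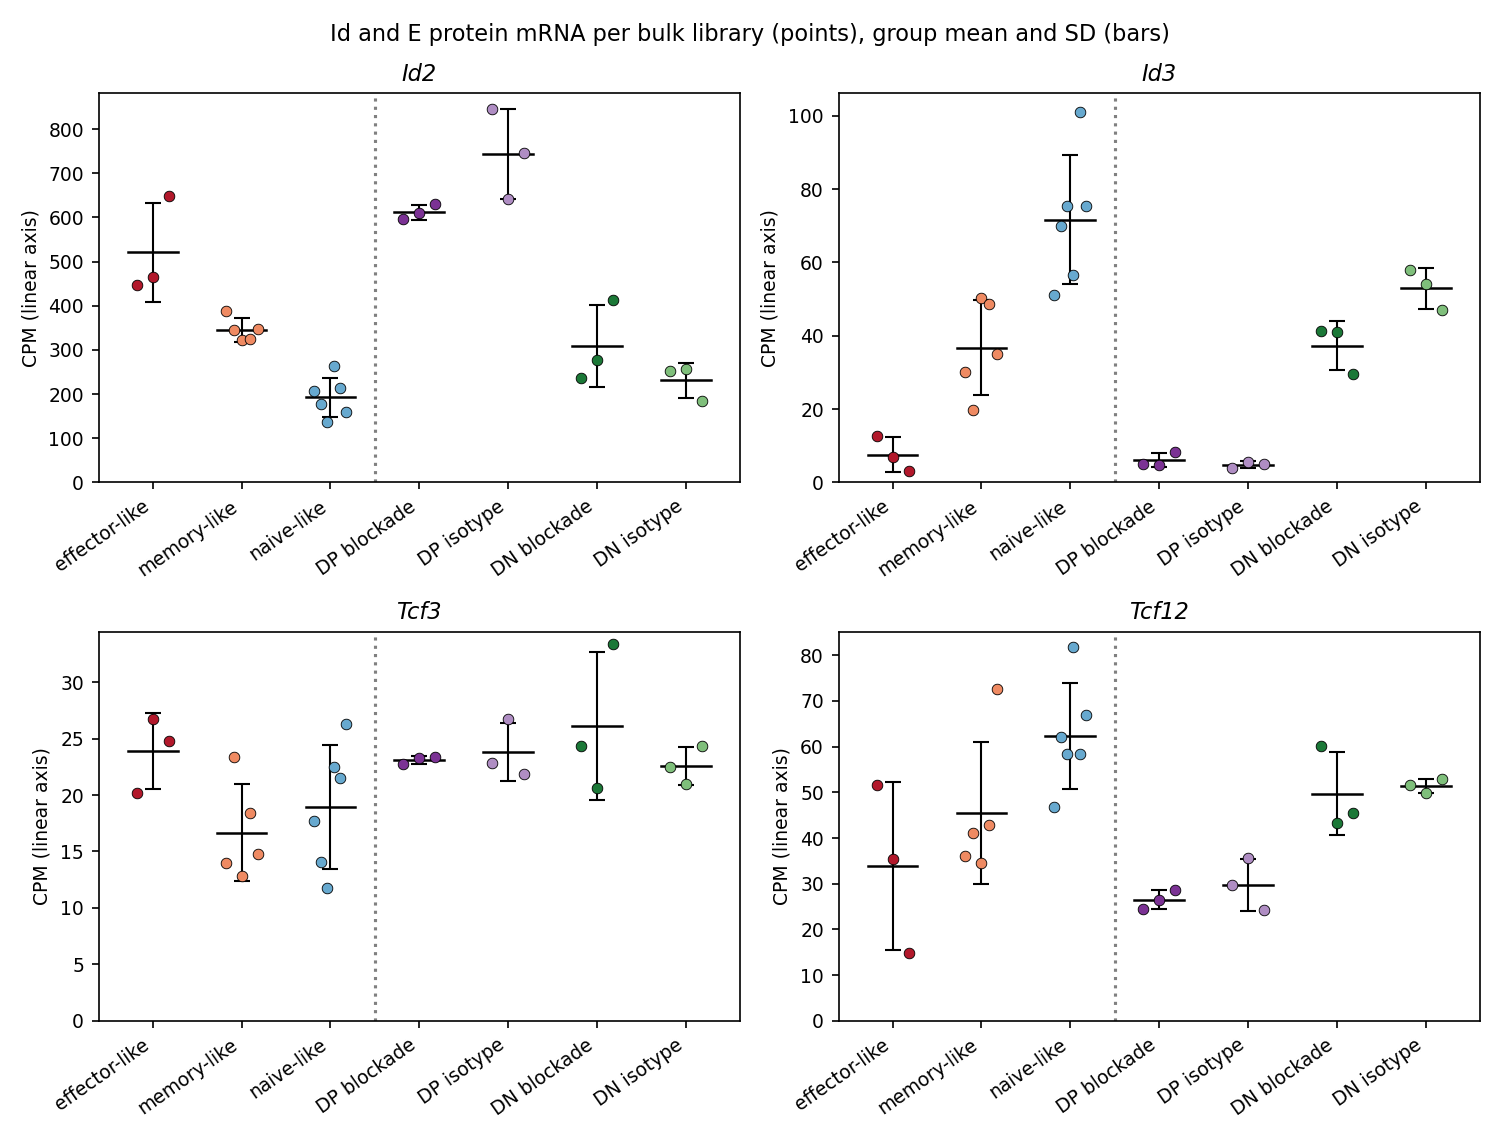
Level of Id2, Id3, Tcf3 and Tcf12 in CPM (linear axes from 0) in each bulk library (points), with the group mean (line) and SD (bar). The subset experiment stands left of the dotted line and the treatment experiment right of it. Id2 is highest in effector-like and DP cells, where Id3 is lowest, at 3.12 to 12.6 CPM in effector-like and 3.79 to 8.25 CPM in DP libraries.

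Neither E protein gene passed between the subsets. Tcf3 was at 20.2, 26.8 and 24.8 CPM in effector-like libraries, 12.9 to 23.4 CPM (median 14.8) in memory-like libraries and 11.7 to 26.2 CPM (median 19.6) in naive-like libraries. The groups overlapped in all 3 comparisons, the log2 differences lay between -0.18 and 0.52, and Tcf3 passed in none (smallest adjusted p by edgeR 0.599). Tcf12 was at 51.5, 35.4 and 14.8 CPM in effector-like libraries, 34.6 to 72.6 CPM (median 41.2) in memory-like libraries and 46.7 to 81.8 CPM (median 60.3) in naive-like libraries. The effector-like libraries alone spanned more than the distance between the memory-like and naive-like medians. The effector-like libraries with more Tcf12 also had more of the tumour and stroma markers, at 775, 495 and 8.59 CPM in libraries 1, 2 and 3, and the same libraries, in the same order, had less Id2 and more Id3. The summed myeloid markers (458, 36.1 and 16.4 CPM) and NK and gamma-delta T markers (263, 223 and 181 CPM) had that order too. Those of CD4 T, dendritic and plasmacytoid dendritic cells did not. Naive-like library 4 had the most Tcf12 of its group (81.8 CPM) and the least tumour and stroma markers (12.1 CPM). Naive-like library 6 held 66.9 CPM of Tcf12 and 477 CPM of those markers. The part of all such cells in the levels of these genes was not tested. Tcf12 did not pass in the subsets, with -0.87 ± 0.33 for effector-like over naive-like cells (edgeR, adjusted p = 0.153).

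The other Id genes were low. Id1 was at 2.21 to 3.15 CPM in effector-like, 0.871 to 3.84 CPM in memory-like and 1.61 to 6.79 CPM in naive-like libraries, at 4.17 to 7.26 CPM in DP libraries and at 1.19 to 6.53 CPM in DN libraries. It passed in no comparison, the smallest adjusted p by edgeR being 0.288. Id4 had 0 counts in all 12 treatment libraries and at most 1.31 CPM in a subset library, and it was not tested.

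DP cells held more Id2 and less Id3 than DN cells, and here Tcf12 differed too. Id2 was at 596, 610 and 630 CPM in DP blockade libraries, against 235, 277 and 413 CPM in DN blockade libraries. In isotype mice it was at 845, 641 and 745 CPM in DP libraries, against 252, 256 and 185 CPM in DN libraries. No DP library overlapped a DN library. The log2 fold change of DP over DN was 0.99 ± 0.19 after blockade (edgeR over 12710 genes, adjusted p = 0.00217) and 1.69 ± 0.19 in isotype mice (adjusted p = 4.3e-05). The background was high, since 27% of all genes tested passed between DP and DN cells after blockade (14.4% higher and 12.5% lower) and 29.9% in isotype mice (15% higher and 14.8% lower), so that a call alone sets these genes little apart.

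Id3 was low in DP cells. It was at 5.09, 4.81 and 8.25 CPM in DP blockade libraries, against 41.3, 41.0 and 29.6 CPM in DN blockade libraries. In isotype mice it was at 3.79, 5.64 and 5.11 CPM in DP libraries, against 57.9, 54.1 and 47.0 CPM in DN libraries. The log2 differences of DP to DN cells were -2.63 ± 0.23 after blockade (edgeR, adjusted p = 9.82e-06) and -3.45 ± 0.24 in isotype mice (adjusted p = 1.17e-06). The groups were far from overlapping, with the highest DP library at 8.25 CPM and the lowest DN library at 29.6 CPM.

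Tcf12 was at 24.5, 26.4 and 28.6 CPM in DP blockade libraries, against 60.2, 43.4 and 45.5 CPM in DN blockade libraries. In isotype mice it was at 29.6, 35.5 and 24.2 CPM in DP libraries, against 51.7, 49.8 and 52.9 CPM in DN libraries. It fell by 0.91 ± 0.16 log2 units in DP cells after blockade (edgeR, adjusted p = 0.0012) and by 0.79 ± 0.16 log2 units in isotype mice (adjusted p = 0.00232), again without overlap. Tcf3 was at 21.8 to 26.8 CPM in the 6 DP libraries and 20.6 to 33.4 CPM in the 6 DN libraries, which overlapped, and it did not pass (adjusted p = 0.465 after blockade and 0.781 in isotype mice). Of the E protein genes, Tcf12 therefore passed between DP and DN cells and Tcf3 did not. Whether both differ from each other was not tested.

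**Figure D2:**
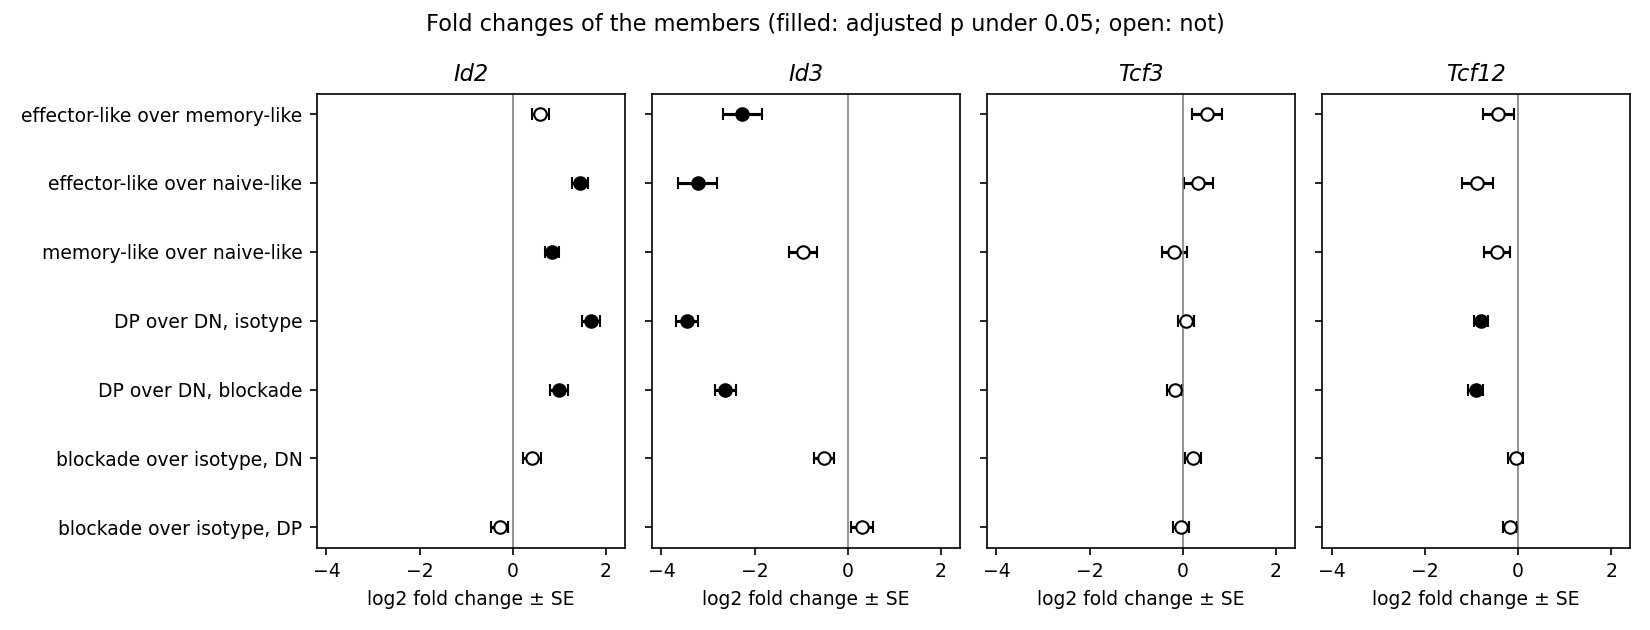
Log2 fold changes with SE of the 4 genes in 7 comparisons of bulk libraries (edgeR). Filled points passed an adjusted p of 0.05. Id2 and Id3 lie on opposite sides of 0 in each comparison, and the Id3 values reach -3.45, beyond any value of Tcf3 or Tcf12. Comparisons that share libraries are not independent of each other.

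Blockade against isotype gave differences that did not pass for any of the 4 genes, in DN or in DP cells. In DN cells, where 1.12% of all genes passed (0.519% higher and 0.598% lower), Id2 was higher after blockade by 0.42 ± 0.19 log2 units (edgeR, adjusted p = 0.308). Its highest DN blockade library, at 413 CPM, stood apart from the other two, at 235 and 277 CPM, and the groups overlapped. Id3 was lower in each DN blockade library, at 29.6 to 41.3 CPM, than in any DN isotype library, at 47.0 to 57.9 CPM, by -0.51 ± 0.21 log2 units (adjusted p = 0.262). With 3 libraries per group, unchanged genes can also separate in full, so the lack of overlap alone sets Id3 little apart. The markers of plasmacytoid dendritic cells and of blood were also lower in DN blockade than in DN isotype libraries, by the sums given above, while those of tumour and stroma summed to 328 to 1449 CPM in DN blockade and 97.3 to 588 CPM in DN isotype libraries. The 7 myeloid markers in the table summed to 51.6 to 166 CPM in DN blockade and 41.6 to 59.8 CPM in DN isotype libraries, and 2 of them, Lyz2 and Fcgr1, passed as higher. The genes of the sorted proteins Tim-3 and PD-1 also passed as higher within the DN gate. Havcr2 was at 18.001, 21.6 and 36.4 CPM in DN blockade libraries 1, 2 and 3, against 2.48 to 6.32 CPM in DN isotype libraries (2.72 ± 0.34, edgeR, adjusted p = 0.00713). Pdcd1, which encodes PD-1, was at 58.6, 127 and 136 CPM in DN blockade libraries 1, 2 and 3, against 25.4 to 40.4 CPM in DN isotype libraries (1.69 ± 0.26, adjusted p = 0.0166). DN blockade library 3, with the highest Id2, was also highest in both, and had the fewest myeloid markers. The part of all these in the differences of Id2 and Id3 was not tested. Without DN blockade replicate 3 the Id2 difference was 0.15.

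In DP cells, where 0.0629% of all genes passed (0.00787% higher and 0.0551% lower), the signs were the other way round. Id2 was lower after blockade, at 596 to 630 CPM in DP blockade libraries and 641 to 845 CPM in DP isotype libraries, with a log2 difference of -0.28 ± 0.19 (edgeR, adjusted p = 0.828). Id3 differed by 0.31 ± 0.24 (adjusted p = 0.864), at 4.81 to 8.25 CPM in DP blockade libraries and 3.79 to 5.64 CPM in DP isotype libraries. The difference between both blockade effects was -0.70 ± 0.26 for Id2 (adjusted p = 0.498) and 0.82 ± 0.32 for Id3 (adjusted p = 0.516). No gene of 12710 passed this interaction test with edgeR, 98 passed with DESeq2, and 1070 had an unadjusted p under 0.05 with edgeR. The interaction values of Id2 and Id3 had unadjusted p of 0.021 and 0.024, and neither passed with DESeq2.

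The ratio of Id2 to Id3 put these levels in 1 value per library. To compare levels between genes, the authors' length-scaled signal was used. By its medians, Id2 stood 50.4-fold above Id3 in effector-like (range 26.6 to 156), 7.44-fold in memory-like (4.79 to 13.1) and 1.74-fold in naive-like libraries (1.36 to 3.48). It stood 87.7-fold above Id3 in DP blockade (57.2 to 94.9) and 109-fold in DP isotype libraries (85.2 to 167), and 5.06-fold in DN blockade (4.27 to 10.4) and 3.26-fold in DN isotype libraries (2.95 to 3.55). The effector-like and DN blockade medians each rest on 3 widely spread libraries. Id3 made up a median of 1.95% of the summed Id2 and Id3 signal in effector-like, 11.8% in memory-like and 36.7% in naive-like libraries. The same share was 1.13% in DP blockade, 0.907% in DP isotype, 16.5% in DN blockade and 23.5% in DN isotype libraries.

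On the scale of log2(CPM + 1), the difference of Id2 minus Id3 was 6.08 ± 1.14 in effector-like (SD, n = 3), 3.27 ± 0.61 in memory-like (n = 5) and 1.42 ± 0.55 in naive-like libraries (n = 6). The lowest effector-like library was at 5.04 and the highest memory-like one at 4.06, and the lowest memory-like library was at 2.65 and the highest naive-like one at 2.20, so these 3 groups did not overlap. The same difference was 6.47 ± 0.34 in DP blockade, 6.997 ± 0.44 in DP isotype, 2.99 ± 0.68 in DN blockade and 2.09 ± 0.14 in DN isotype libraries (n = 3 each). After blockade the DN libraries, at 2.48 to 3.76, lay above the DN isotype libraries, at 1.95 to 2.22, while DP blockade libraries, at 6.09 to 6.72, overlapped the DP isotype libraries, at 6.596 to 7.46. The ratio is given as values, with no p, since it is a score over genes that were chosen together with results of these data known.

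**Figure D3:**
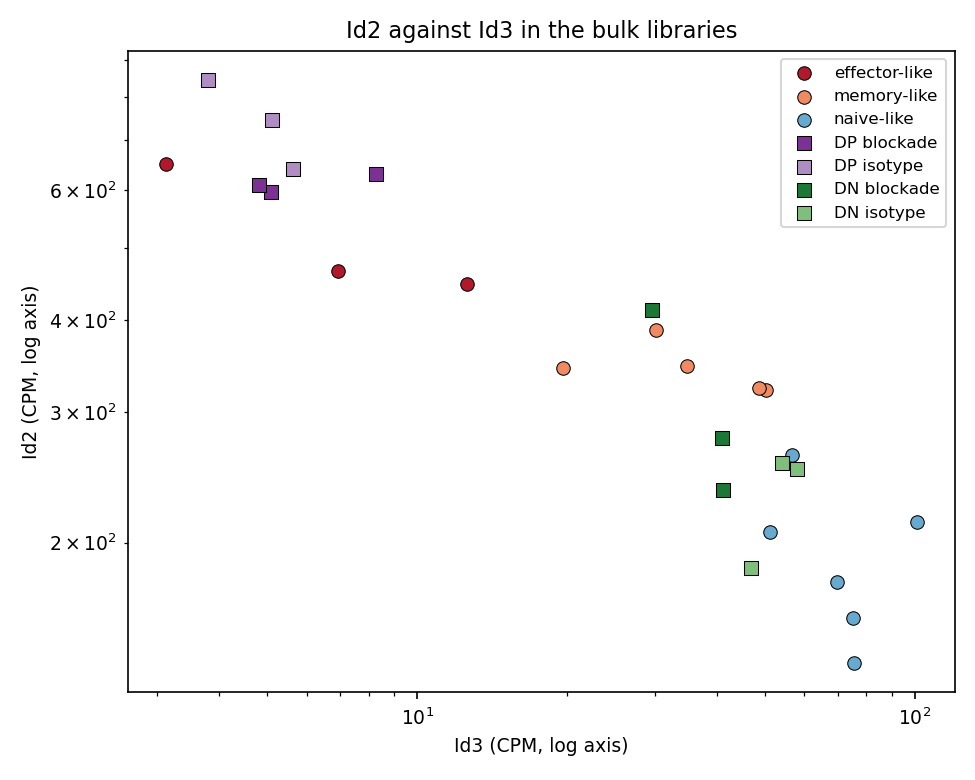
Id2 against Id3 in CPM (both axes on a log scale) in the 26 bulk libraries, coloured by group, with circles for the subset and squares for the treatment experiment, which were scaled separately. Libraries run from high Id2 with low Id3 (DP and effector-like) to low Id2 with high Id3 (naive-like). DN blockade library 3, at 413 CPM of Id2 and 29.6 CPM of Id3, lies by the memory-like libraries.

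The balance of Id to E protein genes depended on how the 4 were combined. Summed over the length-scaled signal, Id2 plus Id3 stood at a median of 23.7 times Tcf3 plus Tcf12 in effector-like, 20.5 times in memory-like and 11.7 times in naive-like libraries. It stood at 37.1 times in DP blockade and 48.7 times in DP isotype libraries, and at 16.2 times in DN blockade and 13.9 times in DN isotype libraries. As a difference of mean log2(CPM + 1), which weights the sparse Id3 as much as the abundant Id2, the effector-like mean was lowest, with 1.17 ± 0.22 in effector-like, 1.999 ± 0.45 in memory-like and 1.74 ± 0.26 in naive-like libraries (SD), and DP libraries lay below DN libraries, with 1.34 ± 0.16 in DP blockade, 1.25 ± 0.23 in DP isotype, 1.55 ± 0.23 in DN blockade and 1.66 ± 0.27 in DN isotype libraries. The ranges of effector-like and naive-like libraries and those of DP and DN libraries overlapped. Id3 was at most 3.62% of the summed Id signal in an effector-like library and at most 1.72% in a DP library. Between the E protein genes, the length-scaled signal of Tcf12 was a median of 0.952 times that of Tcf3 in effector-like, 1.87 times in memory-like and 2.29 times in naive-like libraries, and 0.858 times in DP blockade, 0.981 times in DP isotype, 1.59 times in DN blockade and 1.74 times in DN isotype libraries.

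Some genes followed Id2 and Id3 across the libraries of both experiments. Among 4198 genes, those with the highest Pearson correlation with Id2 in both (ranked by the smaller one) were Il12rb2, a chain of the interleukin-12 receptor (r = 0.953 over 14 subset and 0.949 over 12 treatment libraries), Klrc1, a chain of the NKG2A receptor complex (0.926 and 0.950), and Gzmb, a granzyme (0.947 and 0.925). Among those most like Id3 were the ribosomal protein gene Rpl19 (0.922 and 0.911) and the histone deacetylase gene Hdac4 (0.892 and 0.896). Id2 itself was among the 3 genes most opposite to Id3 (-0.874 and -0.955), after Sh2d2a and the integrin gene Itgb2. These correlations describe how the groups line up, since the libraries fall into separate groups.

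Of 15 genes linked to E proteins in lymphocytes by general knowledge, 14 were tested. In effector-like against naive-like cells 1 was higher and 7 were lower (median log2 difference of the 14 genes -0.69, and 0.04 over all genes). Tcf7, which encodes TCF-1, was at 99.4 ± 20.1 CPM in effector-like and 725 ± 73.9 CPM in naive-like libraries, and Il7r, the interleukin-7 receptor chain, at 158 ± 56.6 and 584 ± 136 CPM in the same order. Cdkn1a, a cell cycle inhibitor, was the 1 that was higher, at 117 ± 26.7 CPM in effector-like and 44.3 ± 16.3 CPM in naive-like libraries. In memory-like against naive-like cells 0 were higher and 5 lower, and in effector-like against memory-like cells 1 was higher and 4 were lower. Of all genes, 3.79% were lower in effector-like against naive-like cells, 2.73% in memory-like against naive-like and 1.43% in effector-like against memory-like cells.

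In DP against DN cells the same list held 1 higher and 8 lower genes after blockade and 1 higher and 9 lower genes in isotype mice (medians -0.62 and -1.21 in that order), where again Cdkn1a was the higher one. Of all genes, 12.5% were lower and 14.4% higher after blockade, and 14.8% lower and 15% higher in isotype mice. Socs3, a brake on cytokine signals, was at 147 ± 1.06 CPM in DP blockade, 131 ± 21.01 CPM in DP isotype, 421 ± 113 CPM in DN blockade and 554 ± 111 CPM in DN isotype libraries. Foxo1, a factor of quiescent T cells, was at 19.9 ± 4.01 CPM in DP blockade, 20.6 ± 2.78 CPM in DP isotype, 34.2 ± 7.49 CPM in DN blockade and 48.6 ± 6.999 CPM in DN isotype libraries. Of the 14 genes, 1 passed between DN blockade and DN isotype cells, the chemokine receptor gene Ccr7 at -1.60 ± 0.33 (edgeR, adjusted p = 0.0415), and 0 passed between DP blockade and DP isotype cells.

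Of 10 genes of terminal effector cells, all 10 were higher in effector-like than in naive-like cells, 7 in memory-like than in naive-like cells and 4 when effector-like were set against memory-like cells (median log2 differences of the 10 genes 3.63, 1.69 and 1.73 in that order). Of all genes, 2.62%, 2.78% and 0.484% were higher in the same order. The list holds Cx3cr1, on whose protein effector-like cells were sorted, so its call in both effector-like comparisons follows from the sort. Between DP and DN cells 5 were higher and 1 lower after blockade (median 0.61, and -0.04 over all genes), and 6 were higher and 1 lower in isotype mice (median 1.17, and 0.0026 over all genes). Of all genes, 14.4% were higher and 12.5% lower after blockade, and 15% higher and 14.8% lower in isotype mice. The lower one was S1pr5, a receptor for exit from tissue, at -5.13 ± 0.97 in isotype mice, while Prdm1, which encodes Blimp-1, was higher in DP cells by 1.87 ± 0.23. Of these genes 3 passed between DN blockade and DN isotype cells, among them Tbx21, which encodes T-bet, at 1.002 ± 0.15.

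Of 12 genes known as inputs to the Id genes, none passed between effector-like and memory-like cells (edgeR, 11 tested). Il12rb2 was at 502 ± 196 CPM in effector-like, 246 ± 47.3 CPM in memory-like and 120 ± 50.7 CPM in naive-like libraries, and passed against naive-like cells for both. Against naive-like cells, 4 were higher and 0 lower in effector-like cells, Smad3 among the higher ones, and 3 higher and 0 lower in memory-like cells. Of all genes, 2.62% and 2.78% were higher in that order. In DP against DN cells 4 were higher and 2 lower in each treatment (median 0.41 after blockade and 0.09 in isotype mice), beside 14.4% of all genes higher and 12.5% lower after blockade and 15% and 14.8% in isotype mice. The share of the list that was lower is near that background. The lower ones were Tgfbr1, a receptor for TGF-beta (-0.91 ± 0.19 after blockade and -1.29 ± 0.19 in isotype mice), and Smad3, which carries its signal (-1.41 ± 0.14 and -1.10 ± 0.13). The interleukin-2 receptor chain gene Il2ra was among the higher ones (2.92 ± 0.33 and 3.37 ± 0.34). TGF-beta is known to induce Id3 in CD8+ T cells, and interleukin-2 and interleukin-12 to induce Id2. The part of these inputs in the levels of Id2 and Id3 was not tested here.

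Of 12 genes for partners and regulators of E and Id proteins, 0 passed in effector-like against naive-like cells, and 2 were lower in memory-like than in naive-like cells, the histone acetyltransferase gene Crebbp (-0.78 ± 0.18) and the corepressor gene Cbfa2t2 (-0.74 ± 0.19). In DP against DN cells 0 were higher and 3 lower after blockade (median -0.09 over 10 tested), near the 27% of all genes called there, and 2 were higher and 5 lower in isotype mice (median -0.35), where 29.9% of all genes were called. Cbfa2t3, which encodes the corepressor ETO2, was lower in both (-3.03 ± 0.51 and -3.30 ± 0.52), as was Crebbp (-0.58 ± 0.13 and -0.56 ± 0.13). Msc, which encodes the helix-loop-helix repressor musculin, was higher in DP cells of isotype mice (4.10 ± 0.63) and did not pass after blockade (1.28 ± 0.55).

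The single DN cells showed the same genes cell by cell, with 2502 blockade and 2950 isotype cells kept and a median of 3839 and 3652 UMIs (molecules counted) per cell in that order. The link of each cell to its library rests on the number at the end of the cell's name and that in the labels' description. Both libraries share 7 barcode sequences. With 1 library per treatment there is no test, and intervals cover counting error only. Id2 was at 778 CPM (UMIs scaled to a common total; 95% exact Poisson interval 762 to 793) in the blockade library and 324 (314 to 334) in the isotype library, a log2 ratio of 1.26. Id3 was at 40.2 (36.7 to 43.9) in the blockade library and 62.9 (58.5 to 67.4) in the isotype library, a log2 ratio of -0.65. Both ratios have the sign of the bulk DN comparison, where neither gene passed.

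Tcf3 was at 66.5 CPM in the blockade library and 65.0 in the isotype library, with a log2 ratio of 0.03 (-0.11 to 0.18). Tcf12 was at 41.8 in the blockade and 47.1 in the isotype library, and its log2 ratio of -0.17 had an interval up to -0.0008. The interval took in 0 once cells with 2 or more myeloid, B cell, tumour or stroma markers were left out (-0.36 to 0.0054). Markers of dendritic, NK and CD4 T cells were not used to leave out cells. Id2 was found in 75.8% of blockade cells and 50.6% of isotype cells, and Id3 in 12.3% of blockade cells and 19.1% of isotype cells. With each cell thinned to 1500 UMIs, these shares were 56.0% and 33.7% for Id2 and 4.72% and 8.24% for Id3, in the same order.

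Detection of Id2 was compared between cells with and without Id3. After thinning, Id2 was found in 33.9% (95% Clopper-Pearson interval 25.4 to 43.2%) of 118 Id3 cells and in 57.0% (55.0 to 59.0%) of 2384 cells without Id3 in the blockade library. In the isotype library it was found in 27.6% (22.1 to 33.6%) of 243 Id3 cells and in 34.2% (32.4 to 36.0%) of 2707 cells without Id3. The intervals did not overlap in the blockade library and overlapped in the isotype library. Cells of 1 library are not replicates, and no test was made.

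Clusters of the single cells, made without the 4 genes, differed in Id2 and Id3. The cluster led by Cxcr6 and Ifitm1 held 1712 CPM of Id2 and 5.27 CPM of Id3 over both libraries, with Id2 in 96.5% of its 574 cells. The cluster led by Ccl4 and Ifng held 1242 of Id2 and 36.7 of Id3, and that led by Ccl5 and Gzma 814 of Id2 and 17.2 of Id3. Among the clusters with less Id2, the one led by Gzmm and Itm2a held 158 of Id2 and 84.1 of Id3. The cluster led by Dapl1 and Ramp1, which also had Lef1 among its leading genes, held 276 of Id2 and 60.1 of Id3.

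Between these in Id2 lay the clusters led by cell cycle genes (2810417H13Rik and Stmn1), with 698 CPM of Id2 and 42.1 CPM of Id3, and by Klra7 and Klra6, with 388 CPM of Id2 and 86.0 CPM of Id3. The pair of clusters led by interferon-stimulated genes differed from each other. The one led by Ifit1 and Ifit3 held 1248 CPM of Id2 and 12.3 CPM of Id3 (308 cells), and the one led by Ifit3 and Usp18 held 262 of Id2 and 71.4 of Id3 (262 cells). Tcf12 was highest in the cluster led by Klra7 and Klra6, at 69.5 CPM. Tcf3 was at 40.3 to 96.8 CPM in the clusters with core T cell genes. The cluster led by Krt8, a keratin of the tumour line, held 122 CPM of core T cell genes, with 33.6 CPM of Id2, 41.8 CPM of Id3 and 147 CPM of Tcf3, the highest Tcf3 level of any cluster. Its 59 cells held 355 of the 825 blockade and 805 isotype UMIs of Tcf3. Without the cells that held 2 or more myeloid, B cell, tumour or stroma markers, Tcf3 was at 57.9 CPM in the blockade and 57.6 CPM in the isotype library. Id3 was found in 2.26% of cells of the Cxcr6 cluster (median 4068 UMIs) and in 35.6% of cells of the deeper Krt8 cluster (median 28858 UMIs), and free RNA was not measured, so low shares such as the first cannot be told from background. In the cluster led by Ccl4 and Ifng the blood markers were at 3674 CPM in the blockade library and 4.77 CPM in the isotype library. The cluster led by Lyz2, a myeloid gene, held 689 CPM of Id2 over its 42 blockade and 2 isotype cells.

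The Id2 intervals of both libraries overlapped in 6 of the 9 clusters with at least 50 cells in each. In the cluster led by Ccl5 and Gzma, Id2 was at 813 (769 to 860) in the blockade library and 815 (759 to 874) in the isotype library. In the one led by Ifit1 and Ifit3 it was at 1244 in the blockade and 1267 in the isotype library, and in the one led by Cxcr6 at 1730 and 1567 in that order. That of the cell cycle genes was among those without overlap, with Id2 at 1027 in 120 blockade cells and 266 in 88 isotype cells, and with 17 and 53 UMIs of Id3 in that order. So was the cluster led by Gzmm, with Id2 at 295 in 56 blockade cells and 142 in 443 isotype cells.

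Over the 9 clusters with at least 50 cells in each library (2347 blockade and 1560 isotype cells), the log2 ratio of blockade to isotype was 1.09 for Id2 and -0.83 for Id3 as the cells were found. With each cluster given the same weight in both libraries, it was 0.30 for Id2 and -0.41 for Id3. Cells of several clusters came mostly from 1 library, as with 802 isotype and 20 blockade cells in the one led by Dapl1 and Ramp1, so a cluster may stand for a library and not for a state.

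**Figure D4:**
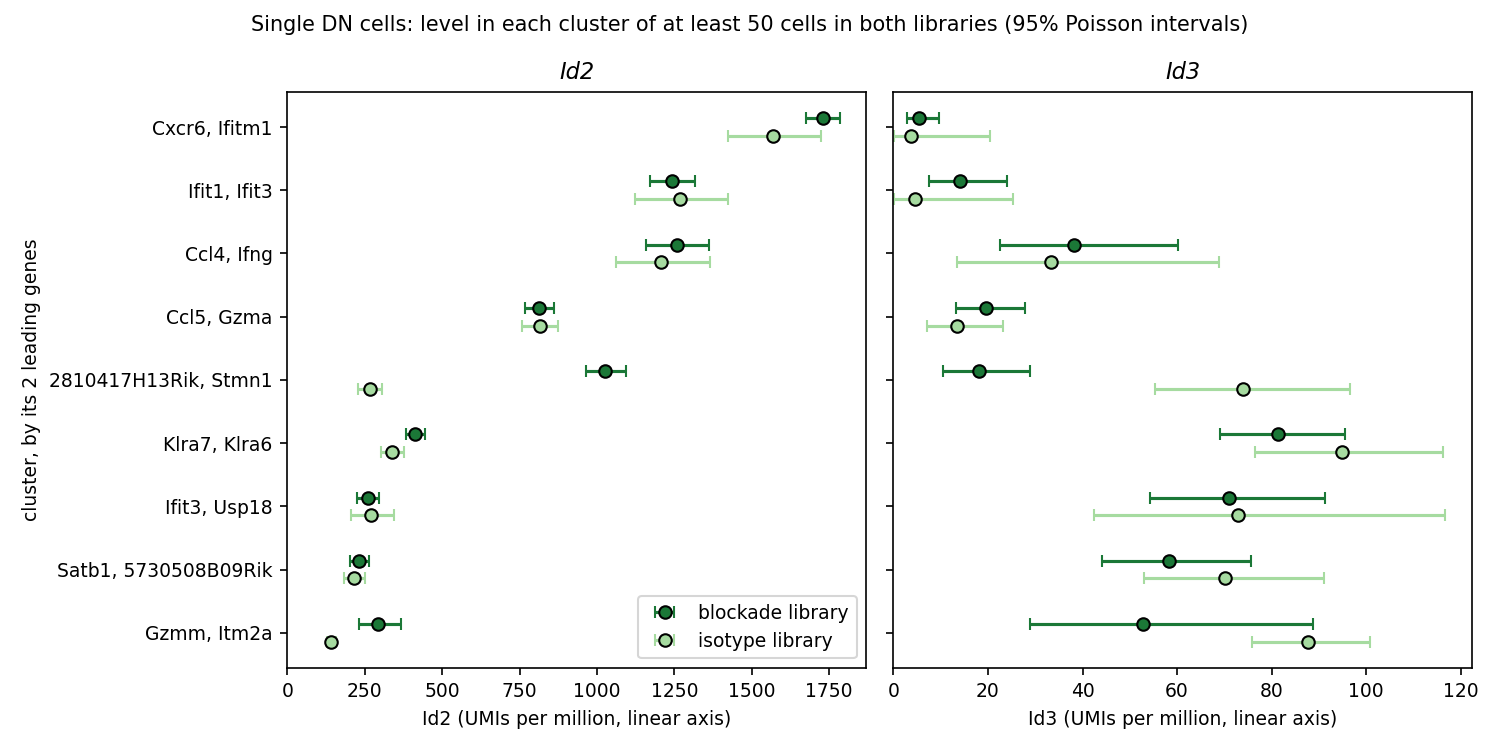
Id2 (left) and Id3 (right) in CPM (linear axes) in each cluster of single DN cells with at least 50 cells in both libraries, with 95% exact Poisson intervals, for the blockade library (dark, upper) and the isotype library (light, lower). Clusters are ordered by Id2. In the cluster led by Ccl5 and Gzma the Id2 points of both libraries coincide (813 and 815), while in the cluster led by 2810417H13Rik and Stmn1 they stand at 1027 and 266.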

How the data were processed

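Bulk libraries were made with an adapted SMART-Seq2 protocol per the labels. The submitters' processing notes name TopHat, RSEM and DESeq with mm9 for bulk and Cell Ranger 1.3 with mm10 for single cells, with no role or order. The deposited bulk tables hold expected counts, which were rounded here to whole numbers. The authors' deposited normalized tables hold a length-scaled signal, used here to compare levels between genes. The ratio of this signal to the deposited count, once a factor for each library was taken out, was constant across libraries within 1 percent in 100% of the 4552 and 5874 genes checked. The deposited single-cell table holds UMI counts for 5471 cells.

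Fits used edgeR 4.0.16 on each bulk table (quasi-likelihood test on group means after filterByExpr and TMM, no block), with Benjamini-Hochberg adjustment over all tested genes and calls at 0.05. CPM use TMM-scaled library sizes. The SE is the size of the log2 fold change over the square root of the F statistic. On simulated data the test called 11.5% of genes changed 2-fold and 52.6% of genes changed 4-fold for effector-like over memory-like cells, and 49.5% and 85.6% for DN blockade over DN isotype cells. Exact permutation tests planned for the balances are not given, since a balance is a score over genes chosen with results known, and the balances are given as values. Title numbers of DN blockade and DN isotype libraries deviated together, with correlations of 0.153 to 0.464 in all 3 pairs, for which the labels give no reason. With the title number as a block 59 genes passed there, none of them a member. No other comparison met this in every pair.

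Cells were kept with 500 or more genes and a mitochondrial share of 10% or less. Clusters came from scanpy 1.11.5 (2000 variable genes without the 4 members, Leiden at resolution 1.0) and are named by leading genes. No doublets were removed. Intervals cover counting error only. Promoter sequences are from RefSeq (GRCm38.p6). Members, lists and tests were chosen with earlier results of these data known. Genes named were the members, the other Id genes, called members of each list, genes of the sort and genes among the 3 most like or opposite to Id2 and Id3. One gene that these rules name is not reported here.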

Additional observations from a re-analysis of the deposited data

Results flagged for a closer look

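Tcf12 in memory-like replicate 5, at 72.6 CPM, stood far from the other 4 memory-like libraries, at 34.6 to 43.0 CPM. It was the only such value among 14 sets of libraries checked, which were the 4 members and the balances in the memory-like and naive-like groups. Chance flags about 1 in 20 groups.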

How the results depend on the processing

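Of 480 values of members under other settings, 464 kept their direction and their side of the threshold. Id2, Id3 and Tcf12 passed between DP and DN cells, and Id3 between effector-like and naive-like cells, under every setting run. Id2 between effector-like and memory-like cells passed with DESeq2 only (0.58, adjusted p = 0.0498). With 1 library left out its adjusted p was 0.164 to 0.488 by edgeR. Id3 in that comparison missed the threshold with only the groups compared (-2.25), with a replicate block by title number (-2.13) and without effector-like replicate 2 (-2.20). The block by library-name number left out effector-like libraries 1 and 2, whose names carry several numbers, and so kept 1 effector-like library. In that fit Id3 was at -3.96 for effector-like over memory-like cells and Id2 at 1.75 for effector-like over naive-like cells. No p is given for values that rest on 1 library. Id3 between memory-like and naive-like cells passed with DESeq2 and with only the groups compared (both -0.94, range 0.0331 to 0.187). No member passed for blockade or the interaction under any setting.

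The number of genes called moved more. With DESeq2 it was 533 for effector-like over memory-like, 1270 for effector-like over naive-like, 1308 for memory-like over naive-like, 522 for DN blockade over isotype, 49 for DP blockade over isotype and 98 for the interaction. With the replicate block by title number it was 123 for effector-like over memory-like, 59 and 4 for blockade in DN and DP cells and 1 for the interaction. With the replicate block by library-name number it was 9, 78 and 204 for the 3 subset comparisons and 1 for the interaction, and these numbers are not known to pair the libraries. In that fit both counts for effector-like cells rest on 1 effector-like library, since the others were left out. They cannot be set beside the counts of the main fit to show what the block does. The part of the block and of the libraries left out in these counts was not tested. Without a low-count filter, blockade gave 224 in DN and 17 in DP cells, and the interaction 7. With only the groups compared, blockade gave 2 in DN and 16 in DP cells. Without memory-like 2 and naive-like 4 and 6, chosen after seeing the data because they stood apart, 1319 passed for effector-like over naive-like. Leaving out 1 library gave 105 to 215 for effector-like over memory-like, 484 to 1068 for effector-like over naive-like, 340 to 815 for memory-like over naive-like, 22 to 229 for DN blockade, 3 to 9 for DP blockade and 0 to 3 for the interaction. Single libraries moved counts by over 1.5 times. Effector-like over memory-like fell to 153 without effector-like 1, 105 without effector-like 2 and 156 without memory-like 3, effector-like over naive-like to 484 and 517 without effector-like 1 and 2, and memory-like over naive-like to 340 and 429 without memory-like 1 and 3. DN blockade over isotype gave 82 and 42 without DN blockade 1 and 3, and 22, 28 and 229 without DN isotype 1, 2 and 3. DP blockade over isotype gave 5 without DP blockade 1 or 2, and 3 and 4 without DP isotype 1 and 3.

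Small values that never passed changed sign when 1 library was left out. Tcf3 ranged from -0.0057 to 0.35 for DN blockade, -0.092 to 0.052 for DP blockade, -0.014 to 0.13 for DP over DN in isotype mice and -0.32 to 0.044 after blockade. Tcf12 ranged from -0.21 to 0.038 for DN blockade and -0.24 to 0.046 for the interaction. The Id2 to Id3 difference of DP over DN in isotype mice was 4.23 with a pseudocount of 5 CPM. The Id to E balance by summed signal, added after seeing the data, took the other sign or size, with 0.44, 1.29 and 0.85 for the 3 subset comparisons, 0.19 for DN blockade, 1.37 and 1.74 for DP over DN after blockade and in isotype mice, and 1.55 over both. In single cells the log2 ratio of blockade to isotype was 1.35 for Id2 and -0.84 for Id3 without cells with 2 or more myeloid, B cell, tumour or stroma markers. It was 0.30 and -0.41 at a fixed mix of clusters, added after seeing the data. At resolution 0.5 the highest cluster level of Id2 was 1564 CPM. The cause of these changes was not tested. The single cells had 1 library per treatment and so no test.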
